A study of Homo sapiens with 96 samples.

Results

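Kallikreins are secreted serine proteases whose genes lie side by side in 1 cluster on chromosome 19. The 7 members described here, KLK5, KLK6, KLK7, KLK8, KLK10, KLK11 and KLK13, are among those known from the epidermis. They were followed across keratinocyte lines, EGFR inhibitors, siRNAs and carcinoma lines. They are 7 of the 19775 genes with a named probe set on the Affymetrix U133 Plus 2.0 array. The choice was made by name, though with earlier results of these data known. The members have 12 probe sets in all, and each gene is represented by the one that was brightest on average across the HaCaT construct arrays. The data are 96 arrays of total RNA, of which 89 came from HaCaT, an immortalized human keratinocyte line, carrying a lentiviral construct under the CMV promoter. The lines were HaCaT-Mock (empty vector), HaCaT-EGFR (wild-type EGFR), HaCaT-HRAS (the HRASVal12D construct of the labels, an activated GTPase upstream of the MAPK cascade) and HaCaT-PIK3CA (the PIK3CA-HR construct, a mutant catalytic subunit of PI3K), all under puromycin selection, a step the control line shared. Cells received PBS (3 arrays a line, 2 in HaCaT-EGFR), 10 nM afatinib or 100 nM gefitinib, which are EGFR kinase inhibitors, or 100 nM cetuximab, an antibody against EGFR (3 arrays a line each, 2 for gefitinib in HaCaT-PIK3CA). Further arrays carried siRNA against EGFR (siEGFR) or scramble siRNA (3 arrays a line each), scramble siRNA with PBS (1 array in HaCaT-Mock, 2 in each other line) and scramble siRNA with 1 inhibitor (1 array per inhibitor and line). The other 7 arrays were the squamous carcinoma lines SCC1 (2 arrays), SCC25 (2) and FaDu (1 untreated, 1 with PBS) and parental HaCaT cells (1). The labels do not say that replicates were separate cultures, so every p-value reflects array-to-array spread alone, and that spread may be technical.

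In the outer layers of the epidermis kallikreins cut the proteins that hold dead cells together, so that they are shed. KLK5 has trypsin-like activity and can activate itself, KLK7 and other kallikreins, while KLK7 has chymotrypsin-like activity and cleaves corneodesmosin. The membrane proteases matriptase (ST14) and prostasin (PRSS8) act in the same epidermal cascade, and inhibitors such as LEKTI (SPINK5) hold it in check. Loss of LEKTI leaves these proteases unrestrained in Netherton syndrome. KLK6, KLK8, KLK11 and KLK13 are further trypsin-like members, and KLK10 is a member with little known proteolytic activity. EGFR signalling keeps basal keratinocytes growing, and its inhibition in patients commonly brings skin reactions.

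The 7 genes lie on the minus strand of chromosome 19 in GRCh38.p14. KLK5 spans positions 50943303 to 50953038, KLK6 50958631 to 50969591, KLK7 50976468 to 50984064 and KLK8 50996008 to 51001604. KLK10 follows at 51012739 to 51020097, KLK11 at 51022236 to 51027991 and KLK13 at 51055626 to 51065679. The RefSeq promoter table (GRCh38.p14) held windows of 250 bases before and 50 after a start for 6 of the 7 members, 11 windows in all, with none for KLK8. Each window was read on both strands for 5 short motifs. The 250 bases upstream of KLK5, KLK6 and KLK7 are shown, since these are the members whose table start is the start of the annotated gene, and since KLK5 and KLK7 are those whose response differed between lines below. They are written 5′ to 3′ on the minus strand, and capitals mark ETS matches (CCGGAA, or TTCCGG on the other strand) and AP-2 matches (GCCNNNGGC).
KLK5, chr19:50953039-50953288: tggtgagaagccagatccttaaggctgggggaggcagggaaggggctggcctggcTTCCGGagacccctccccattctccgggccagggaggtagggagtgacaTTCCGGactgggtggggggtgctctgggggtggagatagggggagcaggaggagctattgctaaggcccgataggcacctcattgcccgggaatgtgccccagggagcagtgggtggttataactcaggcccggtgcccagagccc
KLK6, chr19:50969592-50969841: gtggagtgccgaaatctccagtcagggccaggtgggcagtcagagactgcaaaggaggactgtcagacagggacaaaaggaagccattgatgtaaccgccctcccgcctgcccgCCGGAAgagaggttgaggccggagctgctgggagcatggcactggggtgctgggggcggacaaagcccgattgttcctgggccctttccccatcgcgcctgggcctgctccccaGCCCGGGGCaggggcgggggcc
KLK7, chr19:50984065-50984314: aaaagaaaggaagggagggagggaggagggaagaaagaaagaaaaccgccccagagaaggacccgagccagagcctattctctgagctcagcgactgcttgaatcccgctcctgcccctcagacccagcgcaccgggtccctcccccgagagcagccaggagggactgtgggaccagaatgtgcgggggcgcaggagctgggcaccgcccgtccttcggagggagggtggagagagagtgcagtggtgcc
The KLK5 stretch held 2 ETS matches, the KLK6 stretch 1 ETS and 1 AP-2 match, and the KLK7 stretch none of the 5 motifs. Their GC contents were 64.8%, 66.8% and 64%. Over the 11 windows of the members, 5 held CCGGAA against 17.2% of all 35116 promoters, and 4 held GCCNNNGGC against 23.2%. None held the AP-1 motif TGANTCA (7.71% of all promoters), the grainyhead motif AACNNGTT (3.52%) or TATAAA (11.5%). Windows of 1 gene overlap, and a match is a string of letters, not a site.

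The arrays were run in batches that the labels call J (53 arrays), E (16), M (26) and P (1), and batch moved 2 of the members more than nearly all other genes. In the model KLK5 was 1.21 ± 0.03 (SE) higher and KLK10 1.09 ± 0.04 higher in batch M than in batch J on the log2 scale. Of all genes, 99.8% differed less between these batches than KLK5 and 99.7% less than KLK10. KLK7 was 0.58 ± 0.09 lower in batch E than in batch J. Batch M holds no PBS array of HaCaT-Mock or HaCaT-EGFR. For this reason every difference below comes from a model with a batch term, and values within a batch are given beside it. The 3′ minus 5′ difference of the ACTB control probe sets also separated the batches, at 0.0949 to 0.587 in M against 0.995 to 3.50 in J, and its part in these values was not tested.

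**Figure D1:**
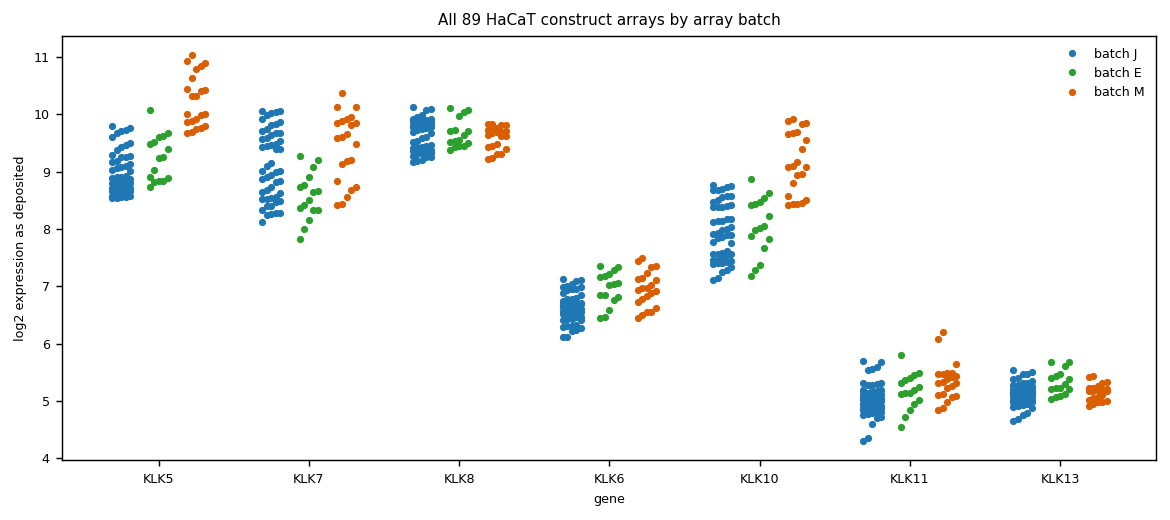
Deposited log2 expression (vertical axis) of the 7 kallikrein genes (horizontal axis) on each of the 89 HaCaT construct arrays, 1 point per array, coloured by the array batch J, E or M of the labels. KLK5 and KLK10 sit about 1 log2 unit higher in batch M (fitted 1.21 and 1.09), KLK7 lower in batch E (fitted -0.58), and KLK8 (-0.08 for M minus J) and KLK13 (0.06) nearly level.

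Checks of the labels came out as follows. EGFR lay between 9.93 and 10.95 on the 12 scramble siRNA arrays and between 7.95 and 9.10 on the 12 siEGFR arrays. The EGFR probe set was not higher in HaCaT-EGFR than in HaCaT-Mock under PBS, and whether it covers the construct is not given. The study reports raised EGFR mRNA in HaCaT-EGFR by RT-PCR and more phospho-EGFR by Western blot. Keratinocyte markers were high on all construct arrays, KRT14 at 11.36 to 13.86 and SFN at 13.02 to 13.59. Of the markers of other cell types, PTPRC of leukocytes (3.37 to 4.27) and MLANA of melanocytes (3.55 to 4.33) had the lowest medians. COL1A1 was the highest of them, at 6.83 to 7.57, above the median over all genes (6.10). The mean of 9 markers of other cell types lay between 4.96 and 5.21 on the PBS arrays and between 4.94 and 5.35 on the inhibitor arrays. Of the 9, the endothelial cadherin CDH5 rose with inhibitors in HaCaT-Mock (0.95), HaCaT-EGFR (0.93) and HaCaT-PIK3CA (0.38), and in HaCaT-PIK3CA PMEL rose (0.28) and COL1A2 fell (-0.48), while none passed in HaCaT-HRAS. The CDH5 response of HaCaT-HRAS differed from that of HaCaT-Mock by -0.80, and the part of these markers in the kallikrein results was not tested. A few arrays stood apart. On HaCaT-PIK3CA afatinib replicate 1, DUSP6, a feedback phosphatase of the MAPK cascade, was at 9.57 and KLK7, KLK8 and KLK10 were at 8.40, 9.16 and 7.40, at or below the batch J PBS arrays of that line. On the same array KLK5 (8.78) and KLK6 (6.77) lay above those PBS arrays. HaCaT-HRAS gefitinib replicate 1 had the ACTB difference of 3.50, and replicates 1 and 2 of that group were doubted from earlier results of these data. Replicate 2 had an ACTB difference of 1.45 and did not stand apart by it. The afatinib array and these 2 gefitinib arrays are called the 3 doubted arrays below. Without them all 74 member calls made below were kept, though most comparisons hold none of these arrays. The single HaCaT-Mock array of scramble siRNA with PBS had DUSP6 at 8.13, below the 9.46 to 10.91 of the 6 such arrays of the other lines.

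Over the construct arrays KLK5 spanned 8.54 to 11.02 on the log2 scale, KLK7 7.82 to 10.36, KLK8 9.16 to 10.12, KLK6 6.11 to 7.49 and KLK10 7.10 to 9.92. KLK11 spanned 4.30 to 6.21 and KLK13 4.65 to 5.68, and the means of these 2 genes (5.13 and 5.17) lay under the median over all genes (6.10). A filter at that median would keep 5 of the 7 members. Across 28 comparisons the 7 genes gave 196 tests, of which 74 passed at an adjusted p under 0.05, 56 higher and 18 lower. KLK5, KLK6, KLK7 and KLK10 passed in 15 comparisons each, KLK8 in 12, KLK11 in 2 and KLK13 in none. The share of all genes called, given beside each count below, ran from 0.0303% to 42.2% over the comparisons. The comparisons share arrays, so these counts are not independent of each other.

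Inhibition of EGFR was examined first. With the 3 inhibitors averaged, KLK5, KLK6, KLK7, KLK8 and KLK10 rose in HaCaT-Mock, HaCaT-EGFR and HaCaT-PIK3CA, KLK10 alone rose in HaCaT-HRAS, and KLK11 and KLK13 passed the test in no line. Array RNA is a mean over all cells, so more RNA per cell and more cells of a type cannot be told apart.

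KLK10 had the largest difference of the 7 in each line with the probe sets used, though a second KLK8 probe set gave larger ones (1.20 in HaCaT-Mock, 0.90 in HaCaT-PIK3CA, 1.39 in HaCaT-EGFR) and a second KLK10 probe set smaller ones (0.28, 0.10 and 0.69). Under PBS KLK10 was at 7.75 and 7.62 (batch J) and 7.67 (E) in HaCaT-Mock. With inhibitors it was at 8.69 (afatinib), 8.57 (gefitinib) and 8.38 (cetuximab) in batch J, and at 8.47, 8.54 and 8.44 in batch E. All 6 same-batch inhibitor arrays of this line lay above its PBS arrays. The difference over all 9 inhibitor arrays against 3 PBS arrays was 0.90 ± 0.11 (SE, adjusted p = 2.86e-09), with 0.86 within batch J and 0.82 within E. In HaCaT-EGFR KLK10 rose from 7.25 and 7.46 under PBS to between 8.57 and 8.77 on the 6 batch J inhibitor arrays. No array of either kind overlapped, and the difference was 1.35 ± 0.13 (adjusted p = 6.05e-12, 1.34 within J). In HaCaT-PIK3CA PBS arrays were at 7.54 and 7.57 (J) and 8.43 (M), and inhibitor arrays at 7.40 to 8.55 (J) and 9.39 to 9.67 (M). The lowest of these was the afatinib array that stood apart, and the difference was 0.84 ± 0.11 (adjusted p = 6.63e-08, 0.70 within J and 1.11 within M).

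KLK5, the trypsin-like protease near the top of the cascade, rose in the same lines. In HaCaT-Mock it was at 8.91 and 8.84 (J) and 9.04 (E) under PBS and at 9.27 to 9.50 (J) and 9.49 to 9.59 (E) with inhibitors, a difference of 0.58 ± 0.07 (adjusted p = 4.34e-09; 0.54 within J, 0.50 within E). In HaCaT-EGFR it went from 8.92 and 8.89 to between 9.60 and 9.80 in batch J, a difference of 0.81 ± 0.09 (adjusted p = 6.36e-11). The groups did not overlap in either line. In HaCaT-PIK3CA KLK5 was at 8.72 and 8.62 (J) and 9.74 (M) under PBS and at 8.78 to 9.26 (J) and 10.32 to 10.44 (M) with inhibitors, a difference of 0.50 ± 0.07 (adjusted p = 5.42e-07).

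KLK7, which cleaves corneodesmosin, rose by 0.49 ± 0.12 in HaCaT-Mock (adjusted p = 0.00104; 0.52 within J, 0.41 within E), by 1.01 ± 0.14 in HaCaT-EGFR (adjusted p = 8.72e-08) and by 0.53 ± 0.12 in HaCaT-PIK3CA (adjusted p = 0.000737; 0.45 within J, 0.75 within M). In HaCaT-EGFR the PBS arrays were at 8.53 and 8.50 and the batch J inhibitor arrays at 9.10 to 9.86. KLK8, another trypsin-like member, rose as well, by less with this probe set than with its second one. Its differences were 0.24 ± 0.09 in HaCaT-Mock (adjusted p = 0.0434), 0.46 ± 0.11 in HaCaT-EGFR (adjusted p = 0.00058) and 0.29 ± 0.09 in HaCaT-PIK3CA (adjusted p = 0.0189). The HaCaT-Mock call is fragile: KLK8 was at 9.43 and 9.31 (J) and 9.44 (E) under PBS and at 9.60 to 9.77 (J) and 9.44 to 9.64 (E) with inhibitors, and the call was kept only without afatinib, gefitinib or cetuximab replicate 2 and lost without any of the other 9 arrays (range 0.19 to 0.27). The HaCaT-PIK3CA call was lost without afatinib replicate 2 or PBS replicate 2 or 3 (range 0.24 to 0.37). KLK6 rose by 0.27 ± 0.07, 0.35 ± 0.08 and 0.37 ± 0.07 in HaCaT-Mock, HaCaT-EGFR and HaCaT-PIK3CA (adjusted p = 0.00149, 0.000573 and 6.26e-05). In HaCaT-EGFR the KLK6 call was lost without PBS replicate 2, the array at 6.58, where its leave-one-out range reached down to 0.29.

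Beside these counts, 5 of 7 members higher in each of the 3 lines, 14.5% of all genes were called higher in HaCaT-Mock, 13.6% in HaCaT-EGFR and 10.2% in HaCaT-PIK3CA. The median difference of the 7 members was 0.27, 0.46 and 0.37 in these lines, against 0.01, -0.02 and -0.01 over all genes. KLK11 changed by -0.03, -0.02 and 0.04 and KLK13 by -0.04, -0.18 and 0.05, and every 95% interval of these 6 differences lay between -0.44 and 0.29. DUSP6, used as a readout of the MAPK cascade, changed by -2.86, -3.18 and -2.34 in the same lines, each past the threshold.

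**Figure D2:**
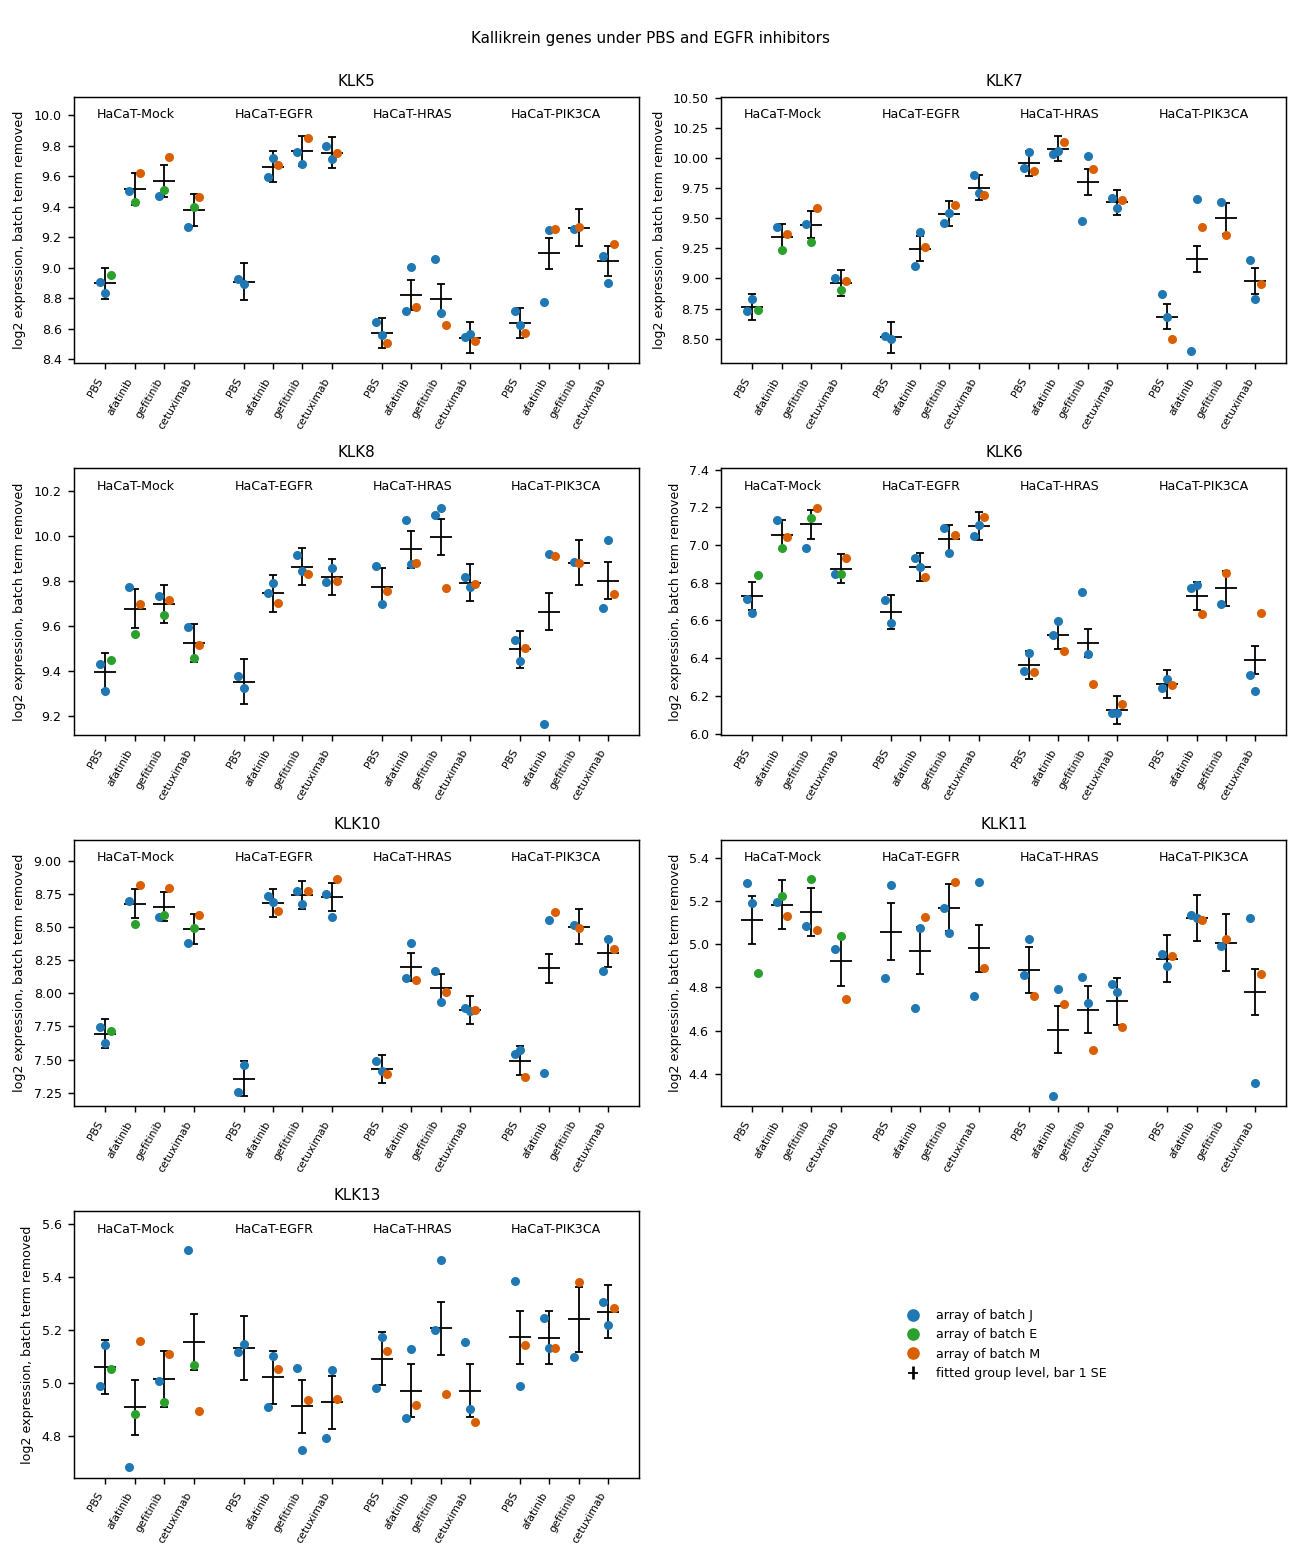
Log2 expression with the fitted batch term removed (vertical axis) of each kallikrein gene under PBS, afatinib, gefitinib and cetuximab in the 4 HaCaT lines (horizontal axis), 1 point per array coloured by batch, with black lines for the fitted group level and its SE. The fitted KLK10 level lies above that of PBS under every inhibitor in every line, KLK5 and KLK7 stay near their PBS level in HaCaT-HRAS (0.15 and -0.12), and the 1 low afatinib array of HaCaT-PIK3CA is visible for KLK7, KLK8 and KLK10.

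In HaCaT-HRAS most members stayed near their PBS level. Only KLK10 passed the test in this line, where 3.81% of all genes were called higher. It was at 7.49 and 7.41 (J) and 8.46 (M) under PBS and at 7.87 to 8.38 (J) and 8.94 to 9.16 (M) with inhibitors, so all 9 inhibitor arrays lay above the PBS arrays of their batch. The difference was 0.61 ± 0.11 (adjusted p = 0.000325; 0.61 within J, 0.60 within M). This KLK10 call was kept on leaving out any of 12 arrays, but was lost with no batch term and in batch J alone. The second KLK10 probe set did not pass in this line. KLK5 was at 8.64 and 8.56 (J) and 9.68 (M) under PBS and at 8.54 to 9.06 (J) and 9.69 to 9.91 (M) with inhibitors, and these ranges overlap within J. Its difference was 0.15 ± 0.07 (adjusted p = 0.252). KLK7 was at 9.92 and 10.05 (J) and 10.13 (M) under PBS and at 9.48 to 10.06 (J) and 9.88 to 10.36 (M) with inhibitors, a difference of -0.12 ± 0.12 (95% interval -0.35 to 0.12). KLK8 and KLK6 differed by 0.13 (-0.04 to 0.31) and 0.01 (-0.12 to 0.15), KLK11 by -0.20 (-0.45 to 0.04), though all 9 inhibitor arrays lay below the PBS arrays of their batch for it, and KLK13 by -0.04 (-0.26 to 0.18). DUSP6 fell by 0.59 here and stayed between 10.21 and 10.65 on the 9 inhibitor arrays.

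The difference between lines was itself tested, as the inhibitor response of a construct minus that of HaCaT-Mock. For HaCaT-HRAS it passed for KLK5 (-0.43 ± 0.10, adjusted p = 0.00317; -0.38 within J) and KLK7 (-0.61 ± 0.17, adjusted p = 0.0133; -0.69 within J), that is for 2 of 7 members where 9.53% of all genes passed. The responses themselves were 0.58 against 0.15 for KLK5 and 0.49 against -0.12 for KLK7. For KLK6 (-0.26, adjusted p = 0.0856), KLK10 (-0.29, adjusted p = 0.294) and KLK8 (-0.10, adjusted p = 0.737) the difference did not pass. The 95% intervals for KLK10 (-0.60 to 0.02) and KLK8 (-0.35 to 0.15) included 0. The KLK7 call was lost without HaCaT-HRAS PBS replicate 2, over a leave-one-out range of -0.64 to -0.56, and neither call was made from batch J arrays alone. Without the 3 doubted arrays KLK6 (-0.34, adjusted p = 0.00471) and KLK10 (-0.31, adjusted p = 0.0197) passed as well. The HaCaT-HRAS gefitinib arrays among them were doubted from earlier results of these data.

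For HaCaT-EGFR none of the 7 passed (0.0708% of all genes). KLK7 came nearest, at 0.52 ± 0.19 (95% interval 0.15 to 0.88, adjusted p = 0.466), with KLK10 at 0.45 ± 0.17 (0.11 to 0.78, adjusted p = 0.519). Both passed without the 3 doubted arrays, at adjusted p = 0.0165 and 0.0186, with differences of 0.52 and 0.45. This comparison holds none of those arrays, and its differences did not change. Only the spread estimated over all arrays, and the p-values that rest on it, changed. None passed for HaCaT-PIK3CA (0.142% of all genes), where differences ran from -0.08 for KLK5 to 0.09 for KLK6.

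Each inhibitor was also compared with PBS over the 4 lines averaged. Afatinib, gefitinib and cetuximab each raised the same 5 members, KLK5, KLK6, KLK7, KLK8 and KLK10, where 19.0%, 19.2% and 14.2% of all genes were called higher. KLK10 changed by 0.94, 0.98 and 0.85 under the 3 agents (SE 0.07 each), KLK5 by 0.51, 0.59 and 0.42, and KLK7 by 0.48, 0.60 and 0.36. The KLK8 differences were 0.25, 0.36 and 0.23, and those of KLK6 were 0.29, 0.34 and 0.12. The smallest of these, KLK6 under cetuximab (adjusted p = 0.0358), was 0.08 within J and was lost on leaving out any of 10 of 23 arrays, 6 with PBS and 4 with cetuximab (range 0.09 to 0.14). These comparisons share their PBS arrays, so their likeness is not independent.

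The agents were then set against each other, with 3 pairs and 7 genes. Their doses differ, 10 nM for afatinib and 100 nM for gefitinib and cetuximab, so a difference between agents cannot be told apart from one between doses. None of the 7 differed between afatinib and gefitinib (0.485% of all genes), with 95% intervals lying between -0.26 (KLK7) and 0.12 (KLK11). KLK6 was 0.17 ± 0.04 higher under afatinib than under cetuximab (adjusted p = 0.0024; 13.2% of all genes differed), at 0.27 within J but 0.02 within M. Gefitinib and cetuximab, both at 100 nM, differed for 3 of 7 members (10.8% of all genes). KLK6 was 0.22 ± 0.04 higher under gefitinib (adjusted p = 0.000382), KLK5 0.17 ± 0.05 (adjusted p = 0.0118) and KLK7 0.24 ± 0.08 (adjusted p = 0.0299). The KLK7 call was lost on leaving out any of 7 of 23 arrays, namely replicate 2 of either agent in HaCaT-HRAS, cetuximab replicate 2 or gefitinib replicate 1 in HaCaT-PIK3CA, replicate 3 of either agent in HaCaT-EGFR or gefitinib replicate 3 in HaCaT-Mock (range 0.21 to 0.28).

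By line, cetuximab showed the widest spread for KLK7. Against PBS KLK7 was 1.25 ± 0.16 higher in HaCaT-EGFR, 0.30 ± 0.15 in HaCaT-PIK3CA, 0.20 ± 0.15 in HaCaT-Mock and -0.32 ± 0.15 in HaCaT-HRAS. Gefitinib gave 1.03, 0.82, 0.69 and -0.15 for the same lines, and afatinib 0.74, 0.48, 0.58 and 0.12. KLK6 under cetuximab was at 6.11, 6.11 (J) and 6.45 (M) in HaCaT-HRAS, below the PBS arrays of the same batches at 6.33, 6.43 (J) and 6.62 (M). This was a difference of -0.24 ± 0.08, against 0.44 ± 0.10 in HaCaT-EGFR. These differences by line and agent are given as values, and none was tested on its own.

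The constructs were compared with HaCaT-Mock to ask what each changed without inhibitor. KLK7 was the member that HRAS moved most. Under PBS it was at 8.73 and 8.83 (J) and 8.15 (E) in HaCaT-Mock, 8.53 and 8.50 in HaCaT-EGFR, 8.87, 8.68 (J) and 8.73 (M) in HaCaT-PIK3CA, and 9.92, 10.05 (J) and 10.13 (M) in HaCaT-HRAS. Every HaCaT-HRAS array lay above every PBS array of the other lines, and within batch J the HaCaT-EGFR arrays lay below those of HaCaT-Mock and HaCaT-PIK3CA, which overlapped. The difference from HaCaT-Mock was 1.20 ± 0.15 (adjusted p = 8.6e-09, 1.21 within J), a fold of 2.29. KLK8 was higher too, at 9.87, 9.70 (J) and 9.68 (M) against 9.43, 9.31 (J) and 9.44 (E), by 0.38 ± 0.11 (adjusted p = 0.0129). That KLK8 call was lost without HaCaT-HRAS PBS replicate 1 or HaCaT-Mock PBS replicate 2 (range 0.33 to 0.42). It was also lost in batch J alone, with only the groups compared, and with the study's probe set rule, which takes the second KLK8 probe set.

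KLK5 and KLK6 moved the other way under HRAS. KLK5 differed by -0.34 ± 0.09 (adjusted p = 0.00472; -0.27 within J) and KLK6 by -0.37 ± 0.09 (adjusted p = 0.000943; -0.30 within J). Without a batch term the KLK5 difference turned to 0.0340 (adjusted p = 0.989). KLK10 differed by -0.27 (95% interval -0.54 to 0.00), KLK11 by -0.23 and KLK13 by 0.03. So 4 of 7 members passed, 2 in each direction, where 16.1% of all genes did. In HaCaT-PIK3CA only KLK6 passed, at 6.24, 6.29 (J) and 6.55 (M) against 6.71, 6.64 (J) and 7.05 (E) in HaCaT-Mock, a difference of -0.47 ± 0.09 (adjusted p = 0.0044; -0.41 within J; 0.162% of all genes). This call was lost without HaCaT-Mock PBS replicate 3 (range -0.52 to -0.42), with a replicate block (-0.42, adjusted p = 0.0699), with no batch term (-0.44, adjusted p = 0.6), in batch J alone (-0.41, adjusted p = 0.288) and with only the groups compared (-0.41, adjusted p = 0.616). In HaCaT-EGFR no member passed (0.698% of all genes), with differences from -0.34 (KLK10, 95% interval -0.64 to -0.03) to 0.07 (KLK13).

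The scramble siRNA arrays, which are other arrays of the same lines, gave the same comparison again. KLK7 was at 9.81, 9.84 (J) and 9.95 (M) in HaCaT-HRAS and at 8.26, 8.25 (J) and 8.43 (M) in HaCaT-Mock. The groups did not overlap, and the difference was 1.55 ± 0.15 (adjusted p = 2.15e-12; 1.57 within J, 1.52 within M). KLK8 was 0.49 ± 0.11 higher (adjusted p = 0.000686; 0.48 within J, 0.52 within M). KLK5 (-0.22, adjusted p = 0.0983) and KLK6 (-0.22, adjusted p = 0.0697) had the same sign as under PBS and did not pass. These were 2 of 7 members where 14.9% of all genes passed.

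KLK11 gave its single call among the HaCaT lines in this set. It was at 5.54, 5.55 (J) and 6.21 (M) in HaCaT-EGFR and at 4.90, 4.88 (J) and 5.44 (M) in HaCaT-Mock, 0.70 ± 0.15 higher (adjusted p = 0.00335; 0.66 within J, 0.77 within M; 2.38% of all genes). Without the HaCaT-EGFR array at 6.21 the call was lost, and the leave-one-out range was 0.59 to 0.77. Under PBS the same contrast was -0.06 (95% interval -0.40 to 0.28), with HaCaT-EGFR at 4.84 and 5.27, and whether the contrasts differ was not tested. In HaCaT-PIK3CA no member passed under scramble siRNA (0.0303% of all genes), and KLK6 was at -0.14.

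Knockdown of EGFR gave a view of the receptor that uses no drug. Over the 4 lines KLK10 rose by 0.49 ± 0.07 (adjusted p = 4.33e-08; 0.48 within J, 0.50 within M), KLK5 by 0.25 ± 0.04 (adjusted p = 7.6e-06), KLK7 by 0.28 ± 0.07 (adjusted p = 0.00219) and KLK8 by 0.14 ± 0.05 (adjusted p = 0.0431). KLK6 fell by 0.12 (SE 0.04, adjusted p = 0.0205), whereas it had risen with the inhibitors in every line but HaCaT-HRAS. By line the KLK6 difference was -0.27 in HaCaT-HRAS, -0.18 in HaCaT-Mock and -0.14 in HaCaT-PIK3CA, but 0.09 in HaCaT-EGFR. Over the 4 lines 5 of 7 members passed, where 28.4% of all genes did. KLK5 and KLK10 lay above the same-batch scramble arrays of their line on 12 of 12 siEGFR arrays, KLK7 on 10 and KLK8 on 9, and KLK6 lay below them on 10. The KLK8 call was lost on leaving out any of 11 of 24 arrays, spread over the 4 lines (range 0.10 to 0.17), and the KLK6 call without HaCaT-EGFR scramble siRNA replicate 3 (range -0.14 to -0.11).

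The KLK10 differences per line spanned 0.38 to 0.54. KLK10 was at 7.56, 7.58 (J) and 8.58 (M) under scramble siRNA and 8.14, 7.99 (J) and 9.09 (M) under siEGFR in HaCaT-Mock, a difference of 0.50 ± 0.14 (adjusted p = 0.0087). HaCaT-EGFR arrays were at 7.29, 7.56 (J) and 8.50 (M) and at 8.00, 7.90 (J) and 9.08 (M), a difference of 0.54 (adjusted p = 0.00435). In HaCaT-PIK3CA the difference was 0.53 (adjusted p = 0.00484), and in HaCaT-HRAS it was 0.38 (95% interval 0.12 to 0.65, adjusted p = 0.0826). In all 4 lines every siEGFR array lay above the scramble arrays of its batch, though HaCaT-HRAS missed the threshold.

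KLK5 passed in HaCaT-Mock (0.30, adjusted p = 0.0184) and HaCaT-EGFR (0.41, adjusted p = 0.000777), and differed by 0.19 in HaCaT-PIK3CA and 0.10 in HaCaT-HRAS. KLK7 passed in HaCaT-EGFR (0.49, adjusted p = 0.0212) and differed by 0.36, 0.27 and -0.01 in HaCaT-Mock, HaCaT-PIK3CA and HaCaT-HRAS. KLK6 passed in HaCaT-HRAS (-0.27, adjusted p = 0.0451), at 6.30, 6.28 (J) and 6.50 (M) against 6.47, 6.59 (J) and 6.83 (M). Per line, 2 of 7 members passed in HaCaT-Mock (10.8% of all genes), 1 in HaCaT-PIK3CA (11.6%), 3 in HaCaT-EGFR (9.46%) and 1 in HaCaT-HRAS (6.29%). The KLK6 call was lost on leaving out any of its 6 arrays (range -0.29 to -0.23), and the KLK7 call without replicate 3 of either siRNA, siEGFR replicate 2 or scramble siRNA replicate 1 (0.44 to 0.54). In HaCaT-Mock the KLK5 call was lost without siEGFR replicate 2 or scramble siRNA replicate 1 or 3 (0.26 to 0.33), and the KLK10 call without siEGFR replicate 1 (0.45 to 0.52).

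**Figure D3:**
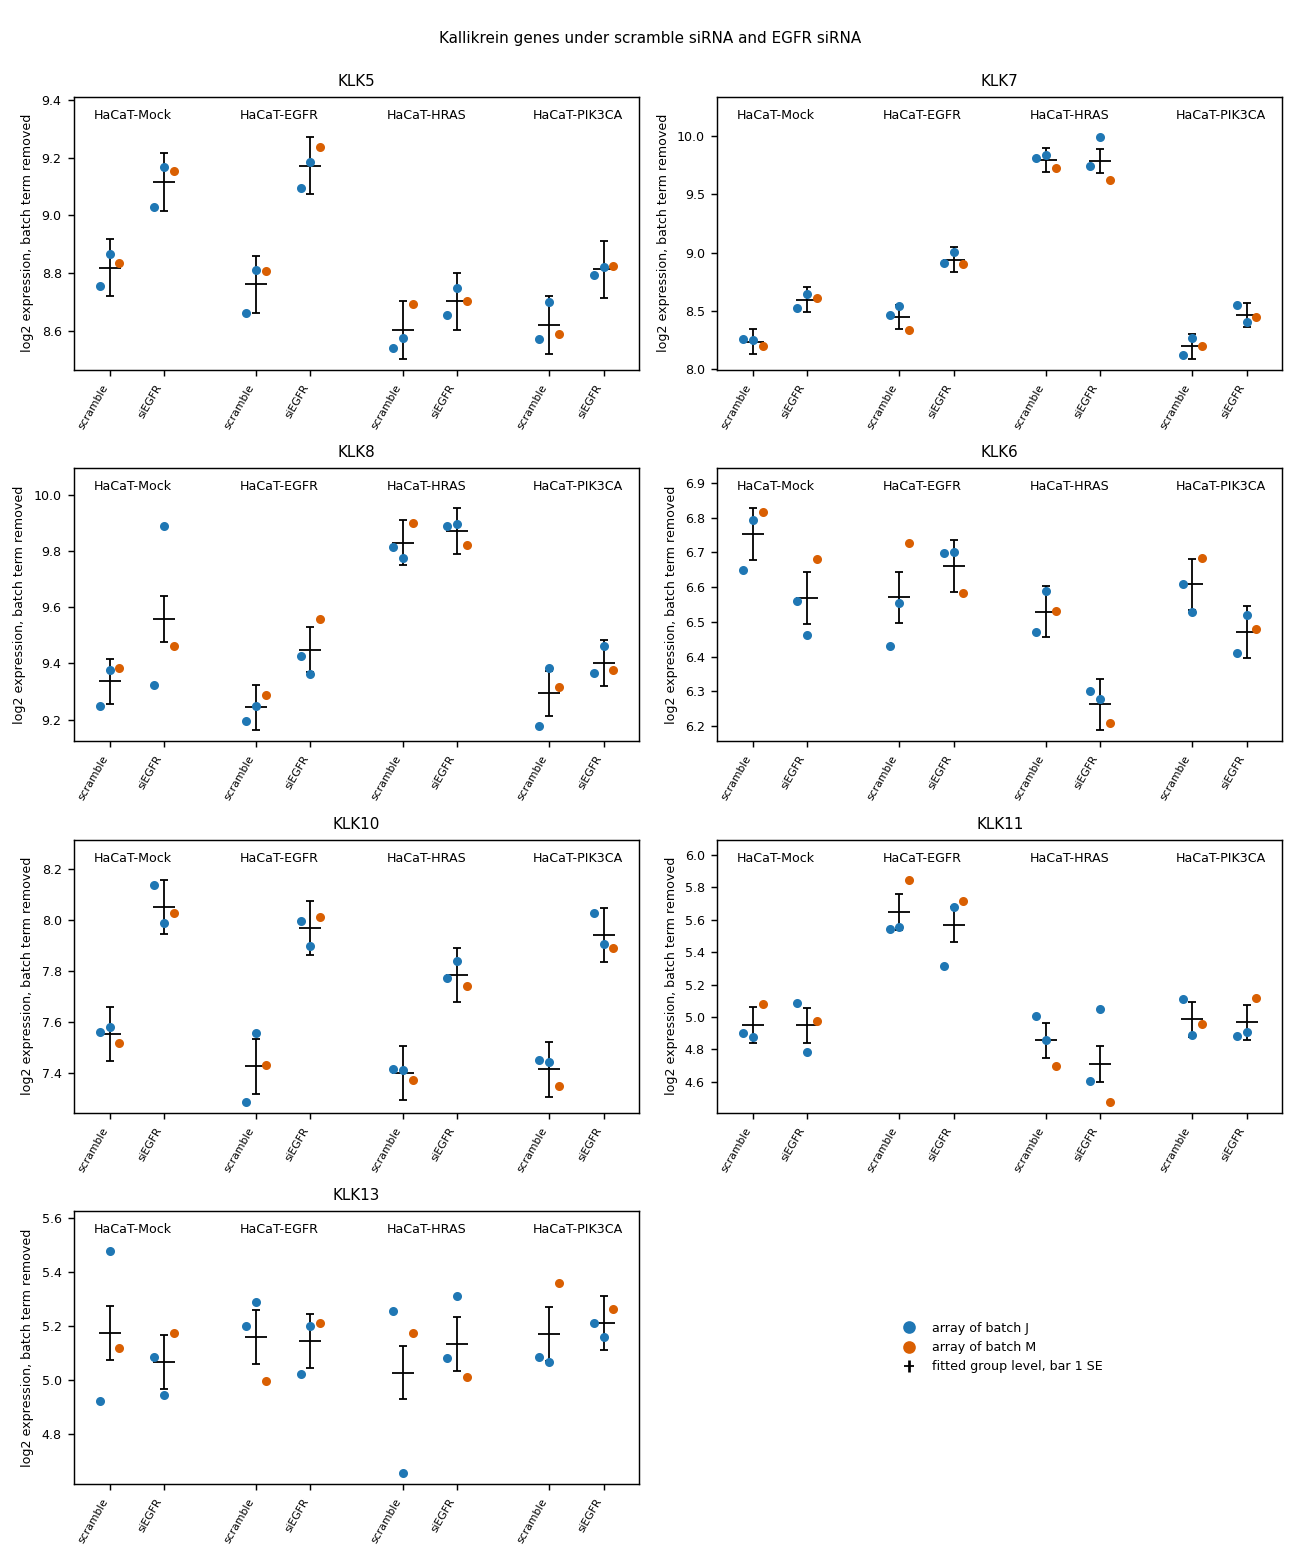
Log2 expression with the fitted batch term removed (vertical axis) of each kallikrein gene under scramble siRNA and siEGFR in the 4 HaCaT lines (horizontal axis), 1 point per array coloured by batch J or M, with black lines for the fitted group level and its SE. KLK10 is higher under siEGFR in each line (0.38 to 0.54), KLK7 in HaCaT-HRAS has a fitted level of 9.79 under scramble siRNA and 9.78 under siEGFR, and KLK11 is highest in HaCaT-EGFR under both (5.65 and 5.57).

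**Figure D4:**
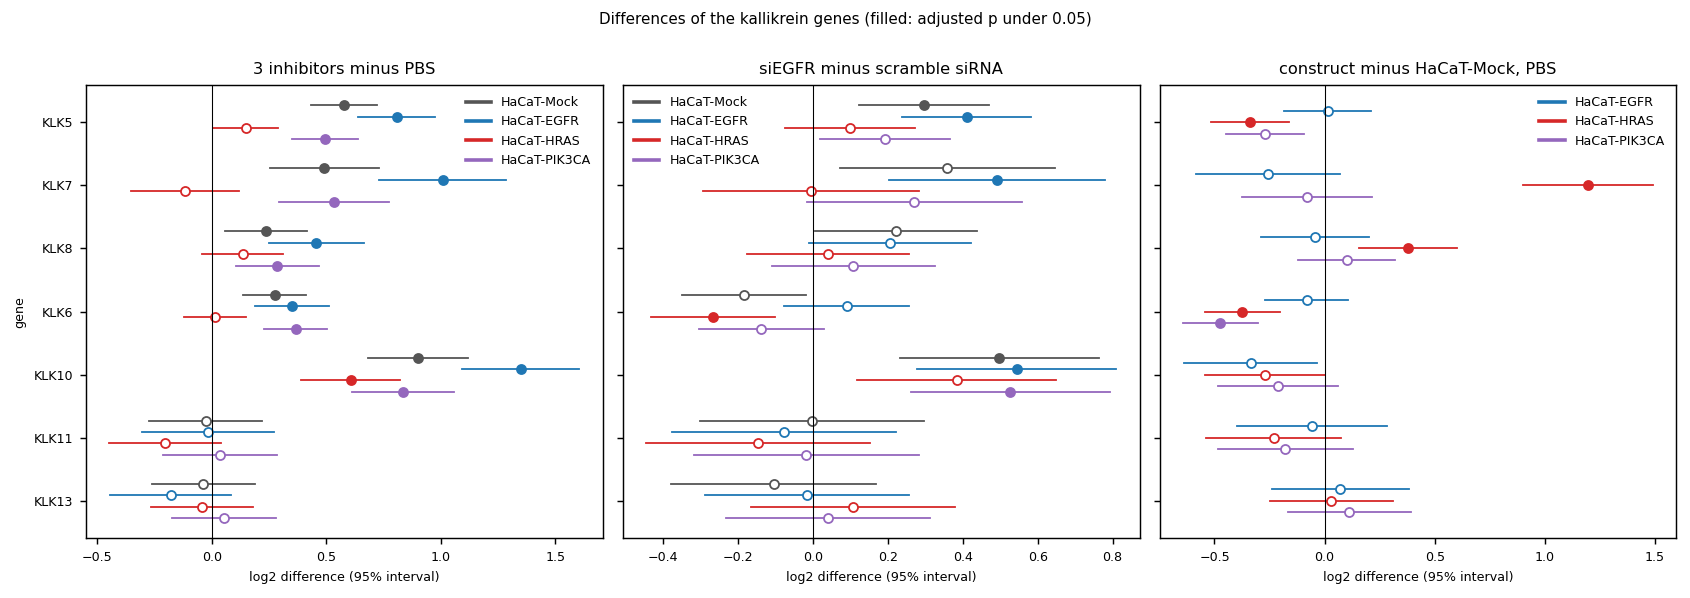
Log2 differences (horizontal axes) with 95% intervals of the 7 kallikrein genes (vertical axis) for the 3 inhibitors minus PBS, siEGFR minus scramble siRNA, and each construct minus HaCaT-Mock under PBS, coloured by line, with filled points at an adjusted p under 0.05. KLK10 stands right of 0 in every line in the first panel (0.61 to 1.35), and KLK7 under HRAS lies farthest from 0 in the third (1.20).

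Inhibitors were given together with scramble siRNA on further arrays, none of which enter the inhibitor comparisons above. Over the 4 lines KLK10 rose by 0.70 ± 0.09 (adjusted p = 9.15e-09), KLK5 by 0.44 ± 0.06 (adjusted p = 2.82e-08) and KLK6 by 0.15 ± 0.05 (adjusted p = 0.0372), 3 of 7 members where 10.3% of all genes were called higher. KLK7 (0.20, adjusted p = 0.156) and KLK8 (0.09, adjusted p = 0.46) did not pass. KLK6 differed by 0.40 in HaCaT-EGFR, 0.30 in HaCaT-Mock and 0.20 in HaCaT-PIK3CA, but by -0.28 ± 0.10 in HaCaT-HRAS. KLK7 differed by 0.77 in HaCaT-EGFR, 0.61 in HaCaT-PIK3CA, -0.07 in HaCaT-HRAS and -0.54 in HaCaT-Mock. These values by line were not tested on their own. By line the KLK10 values spread widely. KLK10 was 1.40 higher in HaCaT-EGFR, 0.98 in HaCaT-PIK3CA and 0.60 in HaCaT-HRAS, but -0.16 in HaCaT-Mock, where the single PBS array was at 8.48 and the inhibitor arrays at 8.14 to 8.41. That array is the one with the low DUSP6 level, and scramble siRNA alone gave 7.56 to 7.58 in the same batch. With HaCaT-Mock left out, a choice made after seeing the data, KLK10 rose by 0.99 (adjusted p = 1.29e-11), KLK5 by 0.51 and KLK7 by 0.44 (adjusted p = 0.000875). KLK6 (0.11, adjusted p = 0.222) and KLK8 (0.20, adjusted p = 0.0543) did not pass then, and 12.4% of all genes were called higher. The KLK6 call over 4 lines was also lost without either HaCaT-HRAS PBS array, HaCaT-EGFR PBS replicate 2 or HaCaT-PIK3CA PBS replicate 2 (range 0.12 to 0.17). In HaCaT-HRAS KLK7 was at 9.57 (J) and 9.28 (E) with PBS and 8.91 to 9.21 (E) with inhibitors, with no rise on any of the 3 arrays.

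The carcinoma lines were compared with HaCaT-Mock under PBS to see which members head and neck squamous cells hold. SCC1 was low for nearly all. KLK8 was at 4.87 (J) and 4.55 (M) against 9.31 to 9.44, a difference of -4.65 ± 0.13 (adjusted p = 5.9e-37), KLK5 at 4.68 and 4.50, KLK10 at 4.25 and 4.48, and KLK7 at 5.28 and 5.85. The differences were -4.89 ± 0.16 for KLK5, -3.86 ± 0.17 for KLK10, -3.31 ± 0.17 for KLK7 and -1.91 ± 0.12 for KLK6. At these low levels the batch terms of KLK5, KLK10 and KLK6 do not hold. SCC1 was no higher in batch M than in J for KLK5 and KLK6 (5.21 in J, 4.73 in M), and little higher for KLK10. Within J the differences were -4.19 for KLK5, -3.44 for KLK10 and -1.46 for KLK6. KLK11 was -0.55 (adjusted p = 0.00865), a call lost without HaCaT-Mock PBS replicate 1 or SCC1 replicate 2 (range -0.67 to -0.45). So 6 of 7 members were lower, where 37.4% of all genes differed.

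In SCC25 KLK5 was higher and KLK7, KLK8 and KLK10 were lower. KLK5 was at 9.99 (J) and 11.40 (M), 1.21 ± 0.16 higher than in HaCaT-Mock (adjusted p = 2.91e-09; 1.11 within J), and 0.91 above the parental HaCaT array of batch M. KLK7 was at 7.38 and 7.65 (-1.36 ± 0.17), KLK8 at 7.43 and 7.72 (-1.79 ± 0.13) and KLK10 at 6.70 and 7.72 (-1.01 ± 0.17). Against the parental HaCaT array of batch M they differed by -1.67, -1.92 and -2.09. The KLK10 call was lost with no batch term (-0.47, adjusted p = 0.585). KLK6 (-0.15), KLK11 (-0.27) and KLK13 (0.05) did not pass, so that 1 member was higher and 3 lower, where 42.2% of all genes differed.

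FaDu had another pattern on its single array in the model. KLK6 was at 9.51 (M), 2.49 ± 0.15 above HaCaT-Mock (adjusted p = 6.75e-21) and 2.10 above the parental HaCaT array of the same batch at 7.41. The other FaDu array, with PBS and in batch P, stood outside the model and had KLK6 at 9.22. KLK7 was at 6.05 and 5.02 on the M and P arrays (-2.94 ± 0.21) and KLK8 at 6.46 and 6.25 (-2.87 ± 0.17). KLK10 was 0.99 ± 0.22 higher than in HaCaT-Mock (adjusted p = 0.000141), yet its 9.75 was 0.06 below the 9.81 of parental HaCaT in the same batch. HaCaT-Mock under PBS has no batch M array, so that this value rests on the batch term. KLK5 did not pass (-0.19), and was 0.61 below parental HaCaT. In FaDu 2 members were higher and 2 lower, where 34.6% of all genes differed, and the spread of this line is assumed to be that of the other groups. KLK13 passed in none of the 3 lines (0.05 to 0.10).

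**Figure D5:**
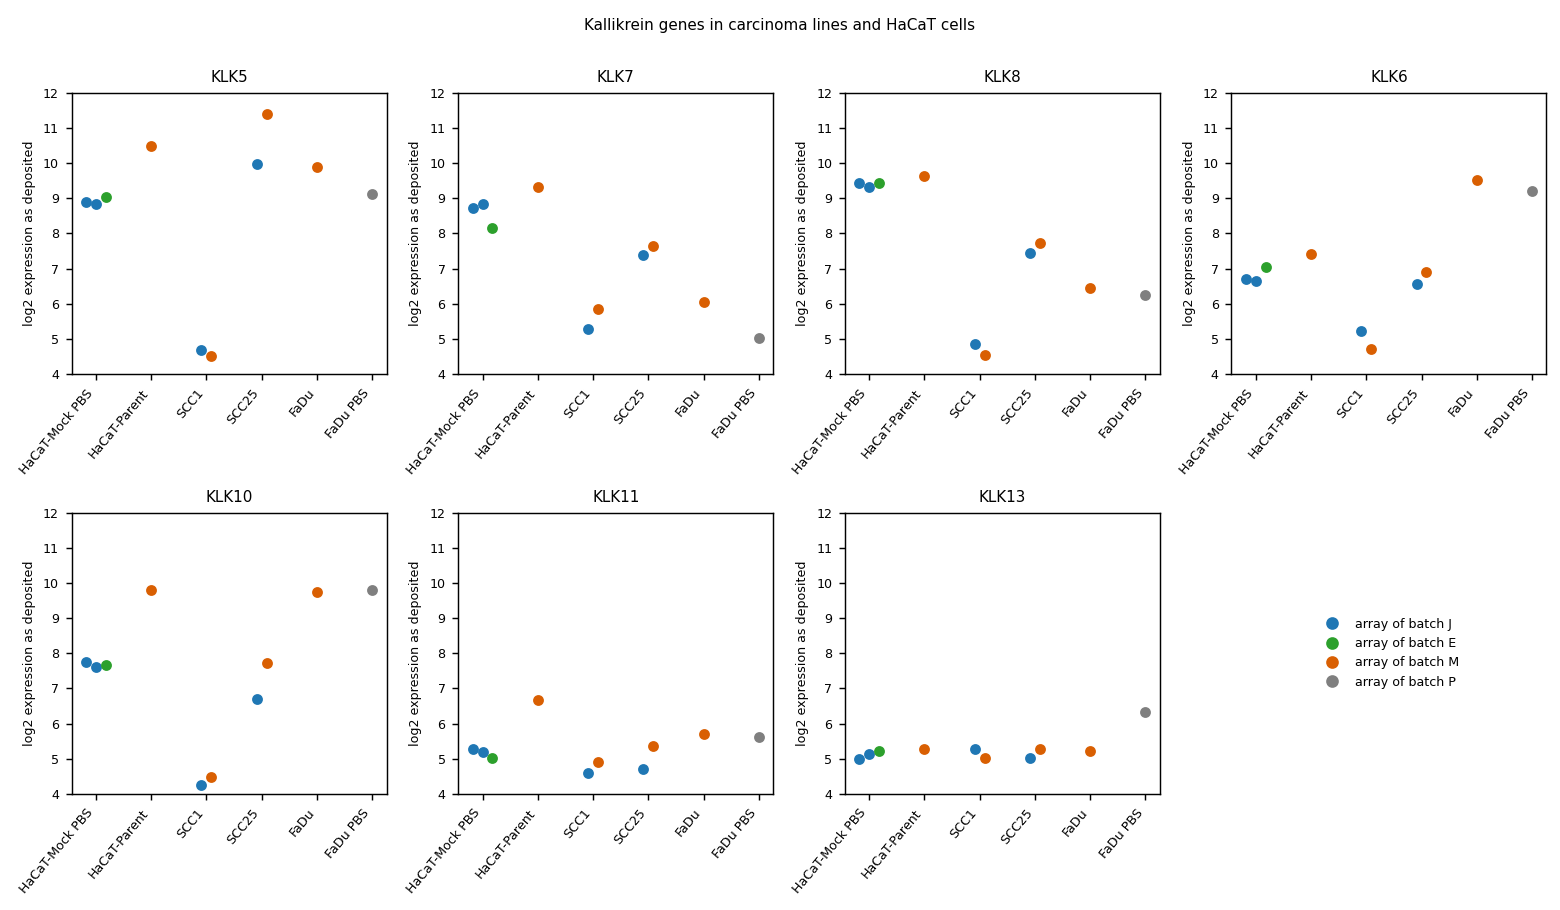
Deposited log2 expression (vertical axis) of each kallikrein gene in HaCaT-Mock under PBS, parental HaCaT, SCC1, SCC25 and both FaDu samples (horizontal axis), 1 point per array coloured by batch. SCC1 lies lowest for KLK5, KLK8, KLK6 and KLK10, SCC25 holds the highest KLK5 (11.40), and FaDu the highest KLK6 (9.51).

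Genes of the same protease system were followed from lists. Of the 7 other kallikrein genes with a probe set of their own, KLK1, KLK2, KLK3, KLK4, KLK12, KLK14 and KLK15, none passed in any HaCaT comparison, while KLK1 was lower in SCC25 (-0.37) and KLK3 higher in FaDu (0.43). Of the membrane proteases and their inhibitors, prostasin (PRSS8) and matriptase (ST14) rose with the inhibitors. PRSS8 rose by 0.69 in HaCaT-Mock, 0.57 in HaCaT-PIK3CA, 0.47 in HaCaT-EGFR and 0.40 in HaCaT-HRAS, and ST14 by 0.43, 0.33 and 0.44 in the first 3 lines of these. SPINT1, a membrane inhibitor of matriptase, rose by 0.31 in HaCaT-Mock and 0.48 in HaCaT-EGFR, and SPINT2 passed in no line. HRAS raised all 4 of the list over HaCaT-Mock under PBS, PRSS8 by 0.93, SPINT1 by 0.62, SPINT2 by 0.45 and ST14 by 0.28, with a list median of 0.54 against -0.00 over all genes. Of the 2 kallikrein inhibitors measured, A2ML1, an inhibitor of KLK7, was 0.42 higher under HRAS (0.76 with scramble siRNA), and SPINK6 passed in none of these comparisons.

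Of 6 substrates, the cytokine IL1B fell with the inhibitors in every line. Its changes with inhibitors, all past the threshold, were -1.55 in HaCaT-Mock, -1.49 in HaCaT-PIK3CA, -1.28 in HaCaT-EGFR and -0.32 in HaCaT-HRAS, and its response in HaCaT-HRAS differed from that in HaCaT-Mock by 1.23 (adjusted p = 1.49e-09). Under HRAS it was 1.68 higher at PBS, beside a higher KLK7. Filaggrin (FLG), processed as the cornified layer forms, was -0.77 under HRAS and rose by 0.47 with siEGFR over the 4 lines. With inhibitors FLG was lower in HaCaT-PIK3CA (-0.34), and over the 4 lines with afatinib (-0.19) and gefitinib (-0.24). DSC1, a desmosomal cadherin of upper layers, rose by 0.36 with siEGFR and with inhibitors in HaCaT-EGFR (0.39) and HaCaT-PIK3CA (0.27), while DSG1 and CAMP passed in no comparison and CDSN, which KLK7 cleaves, in 1 (-0.16 with gefitinib over the 4 lines). In the carcinoma lines FLG differed from HaCaT-Mock by -8.27 (SCC1), -8.41 (SCC25) and -8.07 (FaDu), and keratin KRT14 by -3.03 in SCC1 and -5.35 in FaDu. Of 5 keratinocyte markers, KRT5 rose with inhibitors in each line, by 1.21 in HaCaT-Mock, 1.03 in HaCaT-PIK3CA, 1.38 in HaCaT-EGFR and 0.63 in HaCaT-HRAS. KRT14 rose in the first 3 of these (0.68, 0.45 and 0.79), SFN (0.14 and 0.18) and DSP (0.26 and 0.40) in HaCaT-Mock and HaCaT-EGFR, and ITGB4 was lower in HaCaT-PIK3CA (-0.25).

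Correlations between members were taken over the 40 groups of HaCaT constructs. With the batch term removed, KLK7 and KLK8 had a Pearson r of 0.906 and KLK5 and KLK10 one of 0.882, followed by KLK5 and KLK6 (0.864) and KLK6 and KLK10 (0.630). KLK5 and KLK7 were near 0 (0.0592), and no pair with KLK11 or KLK13 was above 0.454. The groups share lines, treatments and arrays in 1 model, so these values are descriptions with n = 40 groups. The mean of the members is not a profile that all 7 share. Over group means, r with the mean of the other members was 0.80 for KLK10 and 0.74 for KLK5. It was 0.40 for KLK6, 0.34 for KLK8, 0.21 for KLK7, 0.11 for KLK11 and -0.31 for KLK13. Among 9883 other genes with a mean at or above the median, JUP, the junction protein plakoglobin, had the highest r with the mean of the members over group means (0.916), which carry the batch shifts. With the batch term removed its r was 0.911 and its rank 2. Next over group means came MYD88 (0.915, and 0.897 at rank 6 with the batch term removed), PHLDA3 (0.874, and 0.893 at rank 8), FOSL2 (0.873, and 0.866 at rank 26) and SLCO3A1 (0.871, and 0.910 at rank 3).

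Other probe sets of the members were set beside those used. The second KLK7 probe set gave inhibitor differences of 0.73 in HaCaT-Mock, 0.49 in HaCaT-PIK3CA, 1.30 in HaCaT-EGFR and -0.08 in HaCaT-HRAS, and 1.17 for HRAS under PBS, near the values above. The second KLK8 probe set responded more, with 1.20, 0.90, 1.39 and 0.23 for the lines in that order, and with it the HRAS response differed from that of HaCaT-Mock (-0.96 ± 0.19, adjusted p = 0.000479), which the probe set used above did not show (-0.10). For SCC25 (-0.06) and FaDu (-0.34) it did not pass, unlike the probe set used above. The second KLK10 probe set gave 0.28, 0.10, 0.69 and 0.18 in that order and passed in HaCaT-EGFR alone among the lines. KLK13 was higher in FaDu by its other probe sets (1.50 and 0.70), so that no change of KLK13 there can be read from the one used (0.10).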

How the data were processed

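Total RNA was hybridised to Affymetrix U133 Plus 2.0 arrays by the authors. The study's methods name fRMA and pSVA, the labels name affy, but the sources used here do not say which of them went into the deposited log2 values. Deposited log2 values of 54675 probe sets ran from 2.65 to 14.5, with array medians of 5.08 to 5.18. No counts underlie them, so the number of arrays limits the precision. Probe sets with 1 gene symbol (41097) gave 19775 genes, 1 probe set each, chosen by its mean over the HaCaT construct arrays, while 1801 had several symbols and 11777 none. Groups came from the labels. limma 3.58.1 in R 4.3.3 fitted group and batch to the 89 construct arrays, and to 95 arrays for the carcinoma lines, the only array of batch P being left out. The Benjamini-Hochberg adjustment ran over all genes in each comparison, and calls were made at an adjusted p under 0.05. The script was tested on simulated data. Differences are log2 with their SE, and 95% intervals are not adjusted. "Within J" is the same difference of means over batch J arrays only. All members were named, as were genes of the companion lists that passed the test and the 5 genes nearest the members' mean. The labels name 2 labelling kits without saying which array had which. KLK9, SPINK5, SPINK9, F2RL1 and TP63, also on these lists, had no probe set of their own and were not analysed here. The members and lists were chosen with earlier results of these data known.

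Alternatives were no batch term, batch J alone, only the groups compared, array weights, quantile normalization, the mean of a gene's probe sets, the probe set rule of the study, a filter on low values, a replicate block, leaving out the arrays that stood apart, and leaving out each array in turn.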

Additional observations from a re-analysis of the deposited data

Results flagged for a closer look

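The inhibitor response of HaCaT-HRAS minus that of HaCaT-Mock passed its test for KLK5 (-0.43) and KLK7 (-0.61). On the FaDu array with PBS, which stood outside the model, KLK6 was at 9.22 against at most 7.49 on any HaCaT construct array. On the same array the KLK13 level was 6.34 against at most 5.68, while the other FaDu array had it at 5.21. The FaDu array with PBS is the only array of batch P, with an ACTB difference of 2.65. KLK11 was at 6.66 on the single parental HaCaT array, above the 6.21 that was the highest on any construct array. No group held 4 arrays, so none was tested for a single outlying array.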

How the results depend on the processing

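Of the 74 member calls, 74 were kept with the mean over all probe sets, 74 without the 3 doubted arrays and 73 with array weights. Quantile normalization kept 71, the probe set rule of the study 71, only the groups compared 63 and no batch term 36. The filter on low values kept 72 of 72. The study's rule chose another probe set for KLK8 and KLK13 only, so the calls of other members tested it little. The 3 calls it lost were of KLK8, for HRAS under PBS, SCC25 and FaDu. KLK5, KLK6 and KLK11 have a single probe set, so the mean over probe sets left their values as they were. Most comparisons hold none of the doubted arrays, so their kept calls say little about those arrays. Of 953 refits with 1 array left out, 886 kept their call, 67 lost it and 0 turned in sign. Without a batch term KLK5 in HaCaT-HRAS against HaCaT-Mock under PBS turned from -0.34 to 0.0340 (adjusted p = 0.989), the one call whose sign changed under these settings. The arrays of batch J alone kept 41 of 67 calls, with fewer arrays in each fit.

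Replicate numbers were checked for pairing over 20 groups of batch J. The 190 correlations of deviations ran from -0.209 to 0.222 with a median of 0.00309, and 9 were over 0.1, so the numbers were not taken to pair samples. With the replicate block 73 of 74 calls were kept, KLK6 in HaCaT-PIK3CA under PBS being lost (-0.42, adjusted p = 0.0699).

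Counts of member calls fell or rose under several settings, and the cause was not tested. For constructs under PBS the 5 calls became 2 with no batch term, 2 in batch J and 1 with only the groups compared. They became 8 with array weights, 8 without the doubted arrays, and 4 to 5 on leaving out 1 array. For constructs under scramble siRNA the 3 calls became 1 in batch J, 6 with weights and 5 without those arrays (2 to 4). None of those arrays is in a construct comparison. For 1 inhibitor against another the 4 calls became 0 with no batch term, 2 in batch J, 10 with weights and 7 without those arrays (3 to 7). For the response of a construct minus that of HaCaT-Mock the 2 calls became 0 with no batch term, 0 in batch J, 4 with only the groups compared, 6 with weights and 6 without those arrays (1 to 3). For inhibitors per line the 16 calls became 7 with no batch term (15 to 16), and for siEGFR the 12 became 0 with no batch term and 2 in batch J (10 to 12). For inhibitors in scramble siRNA cells the 3 calls became 0 with no batch term and 5 with the mean of probe sets (2 to 3), and batch J alone gave no value. For the carcinoma lines 9 of 14 tests passed in batch J, where FaDu has no array (13 to 14 of 21 on leaving out 1 array, 14 in all). Each inhibitor over the lines kept 13 to 15 calls in all settings and 14 to 15 on leaving out 1 array.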
